A study of Homo sapiens with 12 samples.

Results

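Band 22q12.3 of chromosome 22 holds TIMP3 and, around it, its host gene SYN3, and their levels were compared, with those of neighbouring genes, between the colorectal carcinoma line HCT116 and its oxaliplatin-resistant derivative HCT116oxR. The list as reported has 8 members, taken by name from a table of 54261 genes: RTCB, BPIFC, FBXO7, SYN3, TIMP3, ISX, HMGXB4 and TOM1, in their order along the chromosome. The members were selected on this same contrast, because TIMP3 was among its largest differences, so their values are given as a description and without a test. Tests are given for what the list did not use, which were 49 other genes annotated around the members, partner and family genes elsewhere in the genome, and the small RNA libraries. The question was whether the neighbours were higher in the resistant line along with TIMP3.

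The study held 2 groups of cells. Parental HCT116 cells were grown without selection. HCT116oxR cells came from them by growth in oxaliplatin, a platinum compound that crosslinks DNA, from a starting dose of 0.1 μmol/L raised in steps to 5 μmol/L, which was held for 1 year. Each line gave 3 total RNA and 3 small RNA libraries from cultures that were grown and harvested apart from each other. HCT116oxR is 1 resistant population, so every p-value below measures the spread between cultures, and selection, clonal history and drug exposure cannot be told apart.

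TIMP3 is a secreted inhibitor of matrix metalloproteinases and of ADAM proteases that stays bound to the extracellular matrix. It lies within an intron of SYN3, a synapsin gene of nerve terminals, and such nesting of a TIMP gene in a synapsin gene recurs in the genome (TIMP1 in SYN1, TIMP4 in SYN2). In colorectal tumours TIMP3 is known as a gene that can be silenced by promoter methylation.

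Of the 8 members, 7 had a count in at least 1 library and 5 had enough counts to enter the fit. Total counts per total RNA library ran from 11950069 to 13558077, and 17511 genes were tested. Levels are CPM, counts relative to the library total after scaling by trimmed-mean (TMM) factors. Each log2 fold change sets HCT116oxR against the parental line, so positive values are higher in the resistant cells, and is given with its standard error (SE). A count of 3 was taken as the detection floor, which was 0.221 to 0.252 CPM depending on the library. Counting intervals are exact 95% intervals and cover counting error only. Because transcript lengths were not used, levels are compared between lines and not between genes.

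TIMP3 spans chr22:32801705-32863041 (GRCh38, plus strand). It had 0, 3 and 5 counts in the parental libraries and 130, 102 and 89 in the HCT116oxR libraries. All 3 resistant libraries stood far above all 3 parental ones, where the gene was at or near the floor. The mean level was 0.219 ± 0.204 CPM in parental cells and 8.15 ± 1.26 CPM in HCT116oxR cells (SD, n = 3 each). Its log2 fold change was 5.19 ± 0.37 (SE), with 4.59 without parental library 1 and 5.98 without parental library 3, and the ratio of pooled levels was 38.6, with a counting interval of 19.3 to 90.1 that is wide because it rests on 8 parental counts.

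SYN3, the host gene of TIMP3, spans 551 kb at chr22:32507820-33058381. It had 0, 1 and 0 counts in parental cells and 3, 0 and 1 in HCT116oxR cells. The libraries overlapped and the gene was too low to be tested. The ratio of 3.85 had an interval of 0.381 to 189, so at this depth neither a rise like that of TIMP3 nor no change could be told from the counts of SYN3. What the counts do show is that at most 3 counts in any library were assigned to the host gene, where 89 to 130 counts were assigned to TIMP3 in the same resistant libraries. The use of strand in counting is not given in the sources used here, and reads over a shared stretch of TIMP3 and SYN3 cannot be assigned between them with certainty.

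**Figure D1:**
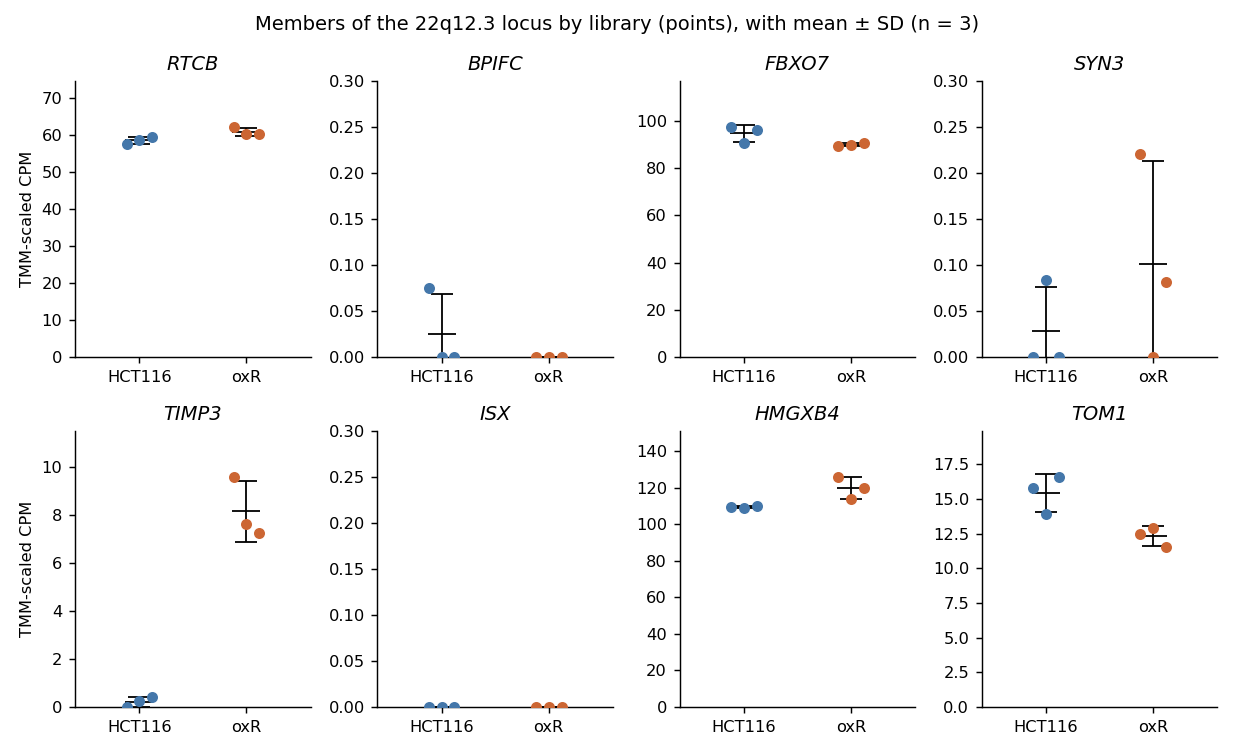
TMM-scaled CPM of the 8 members in each total RNA library, parental HCT116 at left and HCT116oxR (oxR) at right in each panel, with the mean and SD over 3 libraries and a scale of its own for each gene starting at 0. TIMP3 goes from 0.219 to 8.15 CPM, while RTCB, FBXO7, HMGXB4 and TOM1 stay within a narrow range and SYN3, BPIFC and ISX lie at or near 0.

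The members that flank TIMP3 and SYN3 differed little between the lines. FBXO7, the substrate-binding F-box subunit of an SCF ubiquitin ligase, ends 8.99 kb before SYN3, at chr22:32474811-32498829. Its counts of 1290, 1077 and 1187 in parental cells stood beside 1211, 1204 and 1110 in HCT116oxR cells. The level was 94.7 ± 3.60 CPM against 89.9 ± 0.557 CPM (SD, n = 3 each), with every resistant library slightly lower and a log2 difference of -0.08 ± 0.05 (SE). RTCB at chr22:32387582-32412247 encodes the ligase that rejoins tRNAs after intron removal. It had 763, 697 and 734 counts in parental cells and 842, 807 and 739 in resistant cells, or 58.5 ± 0.920 against 60.8 ± 1.09 CPM, a log2 difference of 0.06 ± 0.07. Between these genes lies BPIFC (chr22:32413845-32464446), of the family of lipid-binding BPI proteins, which had 1 count in 1 parental library and 0 in the other 5 libraries.

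On the far side of SYN3 lies ISX, an intestinal homeobox gene, at chr22:35066158-35087387. ISX had 0 counts in all 6 libraries, which leaves room for a level up to the floor in each. HMGXB4, which encodes a protein with an HMG box, lies at chr22:35241536-35295807. Its counts were 1452, 1299 and 1358 in parental cells and 1714, 1533 and 1470 in HCT116oxR cells, and its level was 109.6 ± 0.335 against 120.2 ± 6.03 CPM (SD, n = 3 each). All resistant libraries were above all parental ones, by 1.10-fold on average (log2 0.13 ± 0.05). TOM1, an endosomal adapter for ubiquitinated cargo, lies at chr22:35299275-35347973. It had 210, 165 and 205 counts against 170, 173 and 141, or 15.8, 13.9 and 16.6 CPM against 12.5, 12.9 and 11.5 CPM. TOM1 was thus lower in every resistant library, at 0.798 times the parental level (log2 -0.33 ± 0.13).

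Among the 5 members in the fit, 3 had every resistant library above every parental one (TIMP3, RTCB and HMGXB4) and 2 had every one below (FBXO7 and TOM1). Over all 17511 tested genes 25.7% were separated upwards and 24.8% downwards in this way, and since the members were selected on the contrast nothing is read from their count. The 4 flanking members in the fit lay between 0.798 and 1.10 times their parental level, where TIMP3 was at 36.6 times in the fit. The list has no threshold, so no member stands just inside or outside one. A listed gene at 0 is not always silent in these data. PSMF1, a proteasome regulator used by most cells, was listed at 0 in all 6 libraries. This touches ISX, which was likewise at 0 in all 6. The same caution is kept for BPIFC and SYN3, which had very low counts and were at 0 in some libraries but not in all.

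The RefSeq promoter sequences available for the locus are shown to set TIMP3, whose level differed greatly, beside FBXO7, a flanking gene that hardly differed, and beside RASD2 and SLC5A1, 2 neighbours described below that were higher and lower. Each is the 250 bases before the annotated start in GRCh38.p14, on the gene's plus strand from 5′ to 3′, with CpG dinucleotides in capitals. The intervals are chr22:32801455-32801704 for TIMP3, chr22:32474561-32474810 for FBXO7, chr22:35532556-35532805 for RASD2 and chr22:32043011-32043260 for SLC5A1. FBXO7 has 2 annotated starts, and only the stretch before the one at chr22:32474811 is shown.
TIMP3: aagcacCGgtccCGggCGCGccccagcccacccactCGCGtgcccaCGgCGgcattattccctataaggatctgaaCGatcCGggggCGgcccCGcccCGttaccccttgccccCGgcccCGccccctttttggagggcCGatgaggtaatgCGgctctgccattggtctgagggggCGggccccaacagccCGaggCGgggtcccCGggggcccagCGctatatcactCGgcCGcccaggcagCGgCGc
FBXO7: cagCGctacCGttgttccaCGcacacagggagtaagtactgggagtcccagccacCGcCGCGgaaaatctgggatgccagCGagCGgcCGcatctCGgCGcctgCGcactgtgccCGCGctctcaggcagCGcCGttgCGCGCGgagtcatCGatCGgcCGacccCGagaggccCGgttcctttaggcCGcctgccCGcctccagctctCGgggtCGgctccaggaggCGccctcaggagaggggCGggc
RASD2: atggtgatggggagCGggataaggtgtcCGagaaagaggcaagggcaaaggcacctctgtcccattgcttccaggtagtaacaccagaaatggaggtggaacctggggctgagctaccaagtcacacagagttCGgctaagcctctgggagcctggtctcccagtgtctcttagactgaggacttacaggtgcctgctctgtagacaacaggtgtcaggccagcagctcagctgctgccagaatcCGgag
SLC5A1: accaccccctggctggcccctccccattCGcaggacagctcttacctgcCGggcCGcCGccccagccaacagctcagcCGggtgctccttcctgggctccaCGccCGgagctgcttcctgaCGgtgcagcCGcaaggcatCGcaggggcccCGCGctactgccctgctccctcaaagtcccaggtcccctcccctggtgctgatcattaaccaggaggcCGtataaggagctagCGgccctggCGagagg
The TIMP3 stretch held 26 CpG sites with a GC content of 72.4%, and 19.6% of 35116 promoters of the same length held at least as many. FBXO7 had 30 sites, RASD2 4 and SLC5A1 15, against a median of 11 over all promoters. The letters GGGCGG (a GC box, searched on both strands) occurred 5 times in the TIMP3 stretch, once each in FBXO7 and SLC5A1 and not in RASD2, and 42.6% of all promoters held them. The letters CCAAT occurred once in TIMP3 and in 32.0% of promoters, and TATAAA occurred in none of the 4 stretches and in 10.7% of promoters. These matches describe the letters of the reference, and DNA methylation was not measured in these libraries. Promoters of SYN3 and BPIFC are named only.

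Around the members, the window was set as the stretch from 0.5 Mb below RTCB to 0.5 Mb above TOM1, chr22:31887582-35847973. In it 49 further genes were read, of which 28 had a count and 15 were tested. Of these 15, 5 were higher in HCT116oxR, 5 were lower and 5 were not past the threshold (edgeR quasi-likelihood test, adjusted p under 0.05 over all 17511 genes). Over all tested genes 22.3% were higher and 21.8% lower. The median log2 fold change of the 15 was -0.03, beside -0.00 for all genes. The neighbours went in both directions. None of the 15 rose by as much as TIMP3, but TIMP3 was selected for its large difference, so this is a description only.

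The neighbours read between FBXO7 and LINC01399 had few or no counts. Beyond FBXO7, some genes nearer to the TIMP3 start than ISX-AS1 had more. CPSF1P1, with its midpoint at -0.53 Mb, had 818 parental and 871 resistant counts. LOC107985561, at -0.47 Mb, had 217 and 136. From the end of FBXO7 to the start of LINC01399, 11 genes other than the members were read, and 9 of them had 0 counts in every library. The other 2, ISX-AS1 and LOC105373015, summed to 14 counts in parental and 42 in resistant libraries, and neither was tested. The 3 genes annotated inside SYN3 were all at 0.

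ISX-AS1, a long non-coding RNA gene at chr22:34756665-34997916, on the near side of ISX, held most of these counts. It had 3, 0 and 1 counts in parental cells and 7, 11 and 8 in resistant cells, so that every resistant library was higher. Its ratio was 6.25 (counting interval 2.17 to 24.6). It fell below the count filter, and without that filter its adjusted p was 0.0338 with edgeR and 0.0366 with DESeq2. LINC01399 (chr22:35119824-35231056), 32.4 kb past the end of ISX and also a long non-coding RNA gene, rose from 26, 23 and 22 counts to 53, 67 and 59. This was a level of 1.89 ± 0.0976 against 4.57 ± 0.582 CPM (SD, n = 3 each) and a log2 difference of 1.27 ± 0.28, with an edgeR adjusted p of 5.94e-05. COX7BP1, a pseudogene inside LINC01399, had 12, 22 and 19 against 20, 29 and 20 counts, with overlapping libraries and a log2 difference of 0.30 ± 0.39.

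RASD2, which encodes a Ras-related small GTPase, had the largest rise among the 15 tested neighbours. It lies at chr22:35532806-35553999, 2.74 Mb from the TIMP3 start, and had 30, 32 and 13 counts in parental cells and 152, 179 and 152 in HCT116oxR cells. The resistant libraries were all well above the parental ones, at 11.2, 13.4 and 12.4 CPM against 2.26, 2.69 and 1.05 CPM. The difference was 6.13-fold (log2 2.62 ± 0.21, edgeR adjusted p = 1.47e-21). The remaining rises were small. RBFOX2, a regulator of splicing, was 1.12-fold higher (log2 0.17 ± 0.04, adjusted p = 2.49e-05) and YWHAH, an adapter that binds phosphorylated proteins, was 1.11-fold higher (0.15 ± 0.05, adjusted p = 0.00576). RPL41P3, a ribosomal protein pseudogene within RBFOX2, was 1.57-fold higher (0.65 ± 0.13, adjusted p = 1.25e-05), and its reads may be shared with its host or with RPL41.

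The largest fall was in SLC5A1, the sodium-coupled glucose transporter of the intestine, at chr22:32043261-32113029 and so 0.72 Mb below TIMP3. Its counts were 36, 26 and 23 in parental cells and 3, 0 and 1 in HCT116oxR cells. The level fell from 2.25 ± 0.432 to 0.101 ± 0.112 CPM (SD, n = 3 each), and the resistant libraries were at or under the floor. The log2 difference was -4.35 ± 0.63 (edgeR adjusted p = 2.15e-09) and the pooled parental level was 22.1 times the resistant one (interval 8.32 to 83.0). Without HCT116oxR library 1 the log2 difference was -5.53, and without HCT116oxR library 2 it was -3.79. Its relative SLC5A4 (chr22:32218464-32355063) had 25, 13 and 21 counts against 8, 12 and 7, a log2 difference of -1.18 ± 0.47 (adjusted p = 0.0323). This call was lost with DESeq2, without the count filter, and without parental library 1 or 3 (-1.02 and -1.12) or HCT116oxR library 1 or 3 (-1.08 and -1.07). LOC107985561, a non-coding gene overlapping SLC5A4, had 92, 85 and 40 against 44, 44 and 48 counts, so its libraries overlapped although it passed the test (-0.73 ± 0.24, adjusted p = 0.00683), and the call was lost without parental library 1 or 2 (-0.58 and -0.56).

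HMOX1, the stress-inducible heme oxygenase next to TOM1, had 657 counts over 3 parental and 495 over 3 resistant libraries, at 17.7, 17.2 and 17.7 CPM against 12.2, 11.9 and 13.8 CPM. Its mean level fell from 17.5 ± 0.311 to 12.7 ± 1.05 CPM (SD, n = 3 each), a log2 difference of -0.47 ± 0.13 (edgeR adjusted p = 0.00120). APOL6, of the apolipoprotein L family, had 69, 50 and 47 against 37, 39 and 35 counts (-0.64 ± 0.26, adjusted p = 0.0343), and lost its call with DESeq2, without the count filter, and without parental library 1 (-0.50) or any 1 of the HCT116oxR libraries (-0.61, -0.66 and -0.64). The genes not past the threshold included MCM5, a subunit of the replicative helicase, with a log2 difference of -0.05 ± 0.04 (adjusted p = 0.354), and DEPDC5, which restrains growth signalling through mTORC1, with -0.03 ± 0.26 (adjusted p = 0.932). CPSF1P1 was at 0.02 ± 0.11 and RFPL3S at -0.38 ± 0.53. Of the 13 neighbours with a count that were too low to test, 2 had every resistant library above every parental one (ISX-AS1 and LOC105373017), 1 had every one below (LOC107985590) and 10 overlapped. The shares over all genes too low to test were not computed, so nothing is read from these numbers. Among the 13 neighbours MB, the myoglobin gene, had 5, 9 and 7 counts against 33, 16 and 9. Its ratio was 2.65 (1.59 to 4.61), and without the count filter its adjusted p was 0.0359 with edgeR and 0.0540 with DESeq2. LOC105373017, which overlaps HMGXB4, had 1, 1 and 1 counts against 2, 8 and 4 (ratio 4.49, interval 1.25 to 24.3). Without the count filter its adjusted p was 0.267 with edgeR and 0.229 with DESeq2. In the other direction LOC107985590, a long non-coding RNA gene at chr22:35573568-35588776, had 5, 3 and 8 counts against 2, 0 and 0 (ratio 0.120, interval 0.0134 to 0.511), with an adjusted p of 0.0889 with edgeR and 0.0918 with DESeq2.

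**Figure D2:**
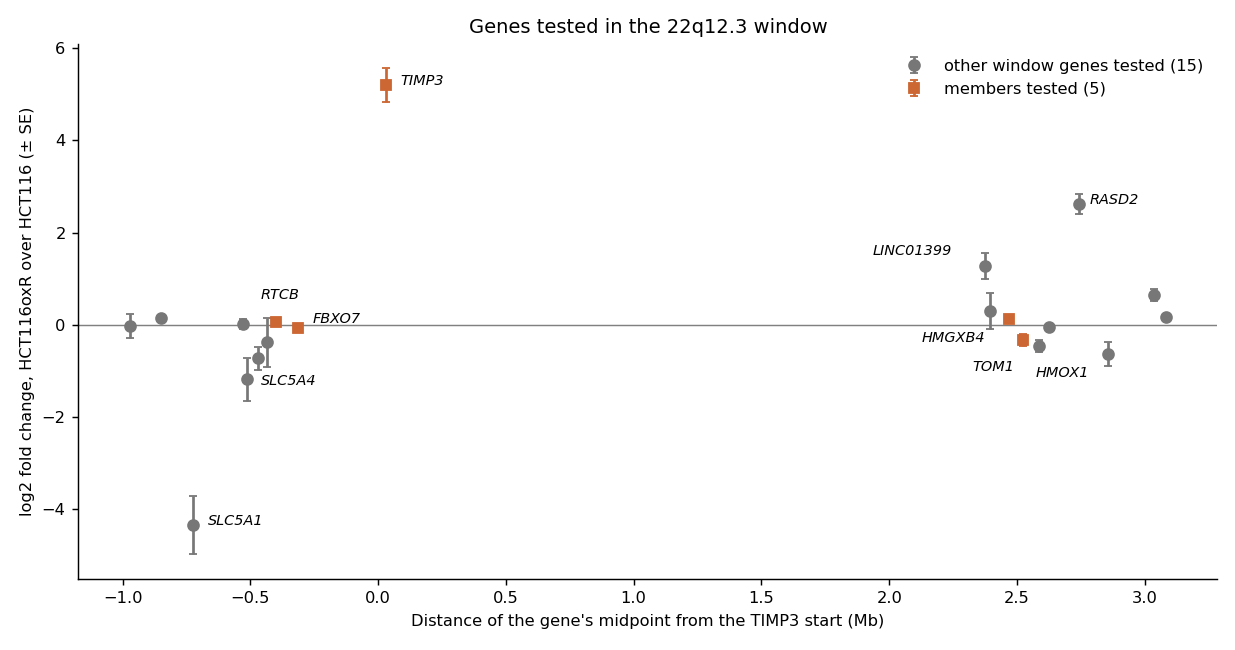
Log2 fold change (± SE) of HCT116oxR over HCT116 for the 5 members in the fit (squares) and the 15 other tested genes of the window (circles), against the distance of each gene's midpoint from the TIMP3 start in Mb. TIMP3 is the highest of the genes shown at 5.19, RASD2 at 2.62 and SLC5A1 at -4.35 are the extremes of the neighbours, and most others lie near 0.

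Seen along the whole chromosome, 425 tested genes lay outside the window, 78 of them higher and 118 lower, with a median log2 fold change of -0.05. Much of the excess of lower genes came from the end of the long arm. Of 39 tested genes whose midpoint lay more than 16 Mb past the TIMP3 start, a bound chosen after the values were seen, 34 were lower, 0 were higher and 5 were not past the threshold (edgeR), with a median of -1.14. Without them the other 386 genes outside the window had 78 higher and 84 lower and a median of 0.00. The window itself, with its median of -0.03, held 5 higher and 5 lower genes.

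**Figure D3:**
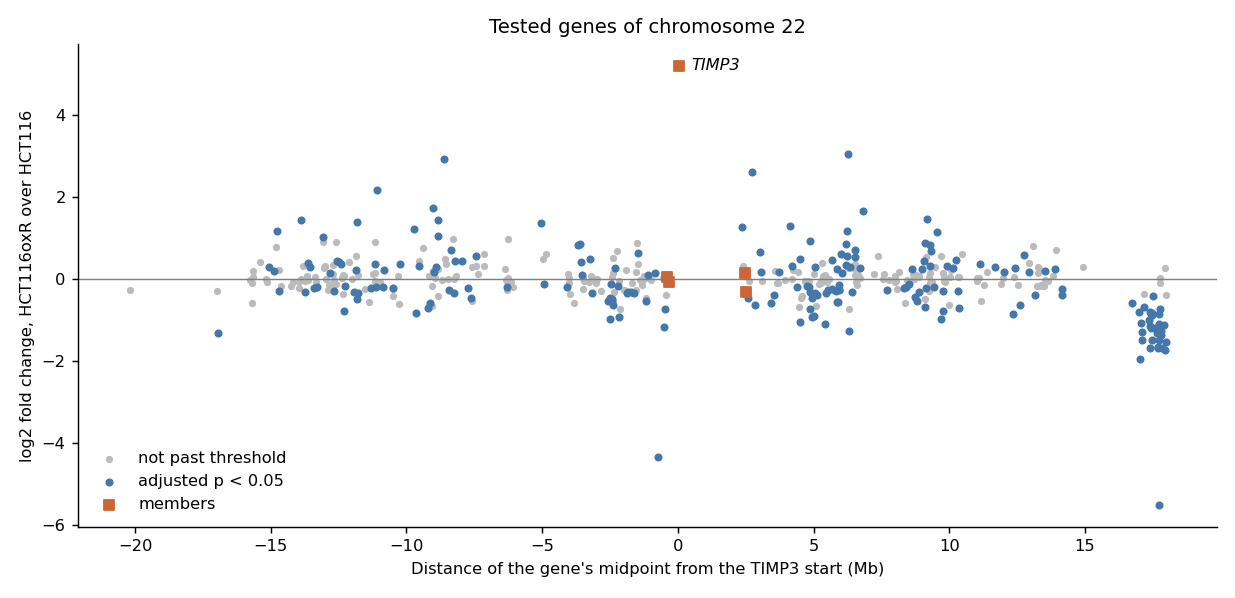
Log2 fold change of tested genes of chromosome 22 against the distance of each gene's midpoint from the TIMP3 start in Mb, with members as squares and genes with an adjusted p under 0.05 in blue. TIMP3 is the highest of the genes shown, genes on either side scatter around 0, and the group at the right end lies below 0 with a median of -1.14.

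The other genes of the pathways in which the members act were drawn from general knowledge into 7 lists. Together 41 of their genes were tested, of which 13 were higher and 10 lower (edgeR, adjusted over every gene tested), with a median log2 fold change of 0.04. These were shares of 31.7% and 24.4%, beside 22.3% higher and 21.8% lower over all tested genes, and no list was tested as a set. Without ENDOD1, which was listed in error, 12 of 40 were higher. In the list of TIMP, MMP and ADAM family genes and related genes, 4 of 13 tested were higher and 5 were lower, with a median of 0.04. TIMP2, the family member that also takes part in activating MMP2, had 2227, 1944 and 1978 counts in parental cells and 3011, 2947 and 2584 in HCT116oxR cells. Every resistant library was higher, at 217 ± 6.14 against 164 ± 3.99 CPM (SD, n = 3 each), a log2 difference of 0.41 ± 0.04 (adjusted p = 3.67e-16). TIMP1 stayed at 45.9 against 44.7 CPM (0.04 ± 0.07, adjusted p = 0.728), and TIMP4 was listed at 0 in every library. Without parental library 1 the TIMP1 difference was -0.00.

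Among the MMP and ADAM proteases of the list, the changes went both ways. ADAM17, the sheddase that releases TNF and of which TIMP3 is the known tissue inhibitor, fell from 95.0 ± 3.14 to 67.0 ± 0.608 CPM (SD, n = 3 each), with counts of 1218, 1129 and 1213 against 899, 901 and 828. Its log2 difference was -0.50 ± 0.06 (edgeR adjusted p = 2.39e-13). MMP14, a membrane-bound collagenase, fell by 0.43 on the log2 scale (SE 0.10, adjusted p = 8.30e-05) and ADAM8 by 0.55 (SE 0.20, adjusted p = 0.0205). The ADAM8 call was lost with DESeq2 and without parental library 1 or 3 (-0.50 and -0.51) or HCT116oxR library 2 or 3 (-0.33 and -0.54). MMP1, an interstitial collagenase, fell from 47, 38 and 31 counts to 5, 5 and 2 (log2 -3.30 ± 0.47). MMP16, also membrane-bound, had 57 parental counts in all and 3 resistant ones, a ratio of 19.8 in favour of parental cells (interval 6.43 to 98.7). All 3 resistant counts were in HCT116oxR library 2, without which the log2 difference moved from -4.15 to -7.28. In the other direction MMP11, a stromelysin gene itself on chromosome 22, rose from 34, 35 and 50 counts to 159, 136 and 121 (log2 1.73 ± 0.20), and ADAM15 and ADAM10 rose by smaller amounts (0.28 and 0.11). The ADAM10 call was lost with DESeq2 and without HCT116oxR library 3 (0.10) or parental library 3 (0.06).

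For SYN3, 6 tested genes of synapsin and synaptic vesicle biology gave 1 higher and 2 lower. SYT1, the calcium sensor of vesicle release, rose from 92, 83 and 82 counts to 491, 454 and 465 (log2 2.39 ± 0.12), while the fusion proteins STX1A and VAMP2 fell (-1.01 ± 0.09 and -0.57 ± 0.09). The related synapsins were near the floor in parental cells. SYN1 had 2 parental counts in all and 17 resistant ones (ratio 8.17, interval 1.94 to 72.9), and SYN2 had 1 and 18 (ratio 17.3, interval 2.73 to 721). Without the count filter the adjusted p was 0.0864 with edgeR and 0.0891 with DESeq2 for SYN1, and 0.0308 and 0.0299 for SYN2. SYN2 hosts TIMP4, which was listed at 0. Neuronal markers as a list summed to 0.336 to 0.905 CPM in parental and 1.27 to 2.12 CPM in resistant libraries. In that list SYN1, SNAP25 and RBFOX3 had every resistant library above every parental one. Over all tested genes 25.7% were separated in this way. SYN1 and RBFOX3 were too low to test, and the share over such genes was not computed. RBFOX3 had 0 parental counts and 6, 1 and 2 resistant ones, so that HCT116oxR libraries 2 and 3 were under the floor. STMN2 had 3 counts in 1 parental library, and the glial marker GFAP, which was put in the same list, was at 0. SNAP25 was the 1 gene of the list with enough counts to test and was not past the threshold (2.30-fold higher in the fit, edgeR adjusted p = 0.0733), and the part of such cells in these values was not tested.

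The lists of the flanking members were short. Of the genes listed as partners of FBXO7, among them SCF ligase subunits, 2 of 4 tested were higher (SKP1 at 0.22 and CUL1 at 0.15) and 1 was lower (CDK6 at -0.21). The CUL1 call was lost with DESeq2 and without HCT116oxR library 1 (0.10) or parental library 3 (0.08). The tRNA ligase complex of RTCB had 2 of 7 higher, FAM98B at 0.85 ± 0.26 and C14orf166 at 0.22 ± 0.06, and its helicase DDX1 was at 0.01. PLTP, a phospholipid transfer protein, was the only gene of the BPI family with enough counts, and it fell (-0.64 ± 0.21, edgeR adjusted p = 0.00815), a call that was lost without HCT116oxR library 2 (-0.39). The TOM1 list had 2 of 8 higher and 1 lower. Its adapter TOLLIP fell (-0.28 ± 0.09, but -0.22 and not past the threshold without HCT116oxR library 3) and the endosomal motor MYO6 rose (1.05 ± 0.24), and ENDOD1 (1.31 ± 0.05), which has no sure tie to TOM1, had been listed in error, so that 1 of 7 was higher without it. For ISX, 2 of 2 tested genes were higher, the intestinal homeobox gene CDX2 (0.51 ± 0.13, with overlapping libraries) and the lipoprotein receptor SCARB1 (0.23 ± 0.05). HNF4A had 2 counts against 26 (ratio 12.5, interval 3.13 to 109). Without the count filter its adjusted p was 0.00846 with edgeR and 0.0187 with DESeq2.

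**Figure D4:**
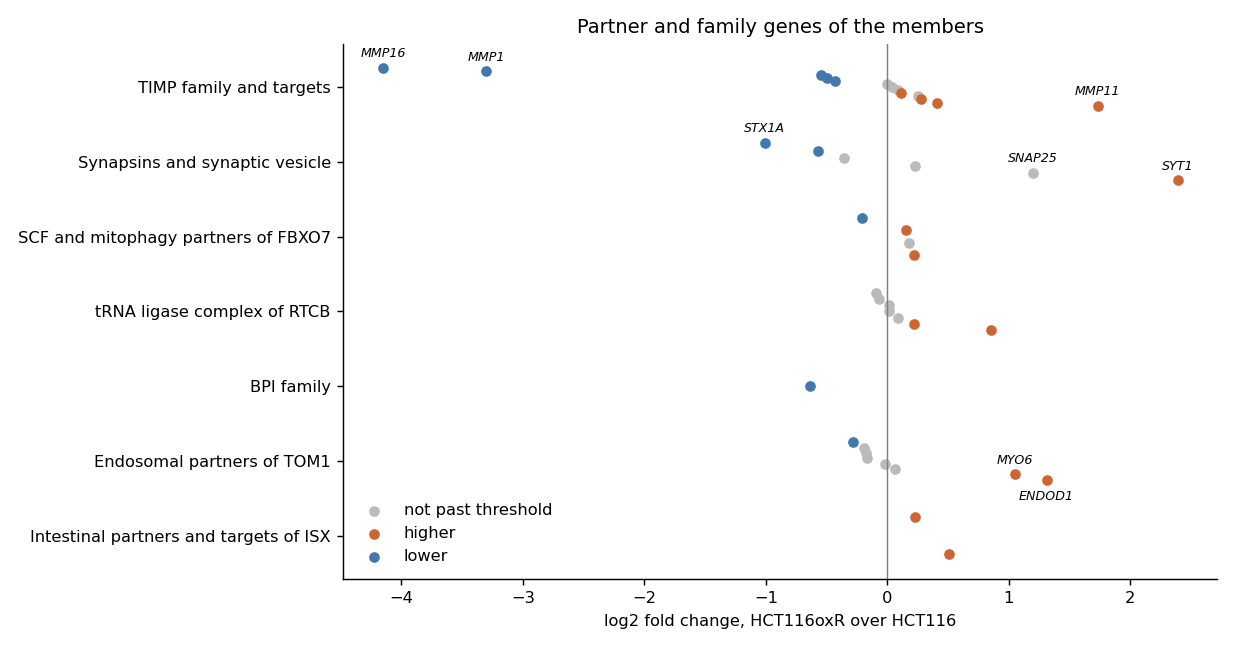
Log2 fold change of HCT116oxR over HCT116 for the 41 tested partner and family genes, 1 row of points per list, coloured by the edgeR call. Changes went in both directions in the lists of TIMP3 and SYN3, from MMP16 at -4.15 to SYT1 at 2.39.

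TIMP3 is abundant in fibroblasts, smooth muscle and endothelium, so the markers of these cells were read beside it. The 8 epithelial markers summed to 3076 to 3184 CPM in parental and 3695 to 3779.7 CPM in HCT116oxR libraries, with 4 of 7 tested higher and 1 lower. Of the 4, CDX2 had overlapping libraries. Over all tested genes 22.3% were higher and 21.8% lower. The 10 fibroblast and smooth muscle markers summed to 61.0 to 73.7 and 52.4 to 59.0 CPM. None of the 4 tested was higher and 1, COL1A1, was lower, and 5 of the 10 stayed under 10 counts in every library. ACTA2 had every resistant library above every parental one but was not past the threshold (1.38-fold higher in the fit, edgeR adjusted p = 0.0894). The other tested markers, COL1A2 and DES, had overlapping libraries. Endothelial markers summed to 1.58 to 2.51 and 2.36 to 3.36 CPM, and leukocyte markers to 0.0809 to 0.505 and 0 to 0.522 CPM, with PTPRC and CD3E at 0. The endothelial marker VWF had every resistant library above every parental one but was not past the threshold (1.67-fold higher in the fit, edgeR adjusted p = 0.0658). PECAM1 went the other way, with 8 parental counts in all and 0 resistant ones. In bulk RNA a higher level in every cell and a high level in some cells cannot be told apart.

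Outside the list, the genes read as most like TIMP3 in their profile over the 6 libraries lay on other chromosomes. Likeness was the Euclidean distance between centred log2 CPM profiles (prior count 2), which is 0 for identical profiles. Genes whose mean log2 CPM fell below 0 were left out. NOVA2, a neuronal splicing regulator on chromosome 19, was nearest at 0.737, with 6, 18 and 22 counts against 283, 316 and 299. ZMAT1, on chromosome X, followed at 0.979 with 1, 2 and 6 against 129, 173 and 148. CAPN6, also on chromosome X, came next at 1.10 with 3 counts over the parental libraries against 200. The distance rests largely on the difference between the lines, on which TIMP3 was selected. After TIMP3 at 5.19, the largest log2 fold change among tested genes of chromosome 22 was 3.05 (APOBEC3G). Nothing about the locus is therefore read from the chromosomes of the nearest genes.

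The small RNA libraries, with 16089595 to 18147051 counts each, held mature microRNAs (miRNAs) from the locus and miRNAs described as acting on TIMP3. Of 975 miRNAs tested, 23.5% were higher in HCT116oxR and 21.2% lower. Mature sequences from RefSeq are shown for the miRNAs on which the results turn, with the seed (bases 2 to 8) in capitals. One from the locus comes first. MIR3909 lies within TOM1 at chr22:35335710-35335731 on the plus strand.
miR-3909: uGUCCUCUagggccugcagucu
The TOM1-hosted miR-3909 had 193, 223 and 199 counts against 258, 249 and 246. After scaling its levels overlapped, with a fold of 1.08 and a log2 difference of 0.11 ± 0.12 (edgeR adjusted p = 0.492). Also within TOM1, miR-6069 had 5 counts in parental and 2 in resistant libraries.

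Of 13 miRNAs described as acting on TIMP3, 12 were tested, 5 of them higher in HCT116oxR, 3 lower and 4 not past the threshold (edgeR). Their median log2 fold change was 0.04, beside 0.01 for all miRNAs tested. They are grouped below by shared seed, with the miR-221 pair and the miR-181 family first.
miR-221-3p: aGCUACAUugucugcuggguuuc
miR-222-3p: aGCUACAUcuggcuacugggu
miR-181a-5p: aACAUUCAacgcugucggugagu
miR-181b-5p: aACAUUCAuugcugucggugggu
miR-181c-5p: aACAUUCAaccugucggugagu
miR-181d-5p: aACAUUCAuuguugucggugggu
miR-21-5p: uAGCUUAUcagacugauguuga
miR-17-5p: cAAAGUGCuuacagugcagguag
miR-30a-5p: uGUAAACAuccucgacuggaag
The seed GCUACAU is shared by miR-221-3p and miR-222-3p, which are neighbours on the minus strand at chrX:45746180-45746202 and chrX:45747036-45747056. Counts of miR-222-3p were 227787, 218477 and 224914 in parental and 322801, 342231 and 374723 in resistant libraries, a log2 difference of 0.46 ± 0.07 (edgeR adjusted p = 1.17e-04). For miR-221-3p they were 312239, 312358 and 319514 against 359571, 352079 and 367348, which after scaling gave overlapping levels and a difference of 0.02 ± 0.05 (adjusted p = 0.817). The difference between the 2 was not tested.

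The seed ACAUUCA is shared by the miR-181 family, whose a and b forms each come from a locus on chromosome 1 and another on chromosome 9, while miR-181c-5p and miR-181d-5p lie side by side on chromosome 19. Its abundant members miR-181a-5p and miR-181b-5p fell, the former from 25798, 24631 and 26332 counts to 18232, 17972 and 19109. Their log2 differences were -0.65 ± 0.05 (edgeR adjusted p = 1.26e-06) and -0.77 ± 0.05 (adjusted p = 2.13e-07), with every resistant library lower in each. The less abundant miR-181c-5p and miR-181d-5p were not past the threshold (0.07 ± 0.15 and -0.16 ± 0.09), and both had overlapping libraries. The most abundant of these miRNAs, miR-21-5p, went from 531913 ± 12004 to 487073 ± 11647 CPM (SD, n = 3 each). Its log2 difference of -0.13 ± 0.04 (adjusted p = 0.0159) lost its call with DESeq2, without the count filter, with the replicate number as a block and in each fit that left out 1 library other than HCT116oxR library 3 (-0.08 to -0.14).

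The miRNAs that rose were miR-30a-5p, miR-17-5p, miR-191-5p, miR-222-3p and miR-103a-3p. For miR-30a-5p the counts went from 3232, 3162 and 3426 to 7048, 6787 and 7327, the largest rise of the 12 at a log2 difference of 0.93 ± 0.06 (edgeR adjusted p = 1.55e-07). For miR-17-5p, of the cell-cycle associated miR-17 cluster, they went from 46135, 47112 and 46783 to 86516, 80796 and 82330 (0.66 ± 0.04, adjusted p = 1.84e-07). For miR-191-5p and miR-103a-3p the differences were 0.57 ± 0.05 and 0.24 ± 0.06. Levels of miR-1-3p were not past the threshold (-0.20 ± 0.11), and miR-206, which shares its seed, had 1 count in parental and 5 in resistant libraries. The miRNAs described as acting on TIMP3 were thus split in direction while TIMP3 itself was higher, and their action on TIMP3 was not measured.

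**Figure D5:**
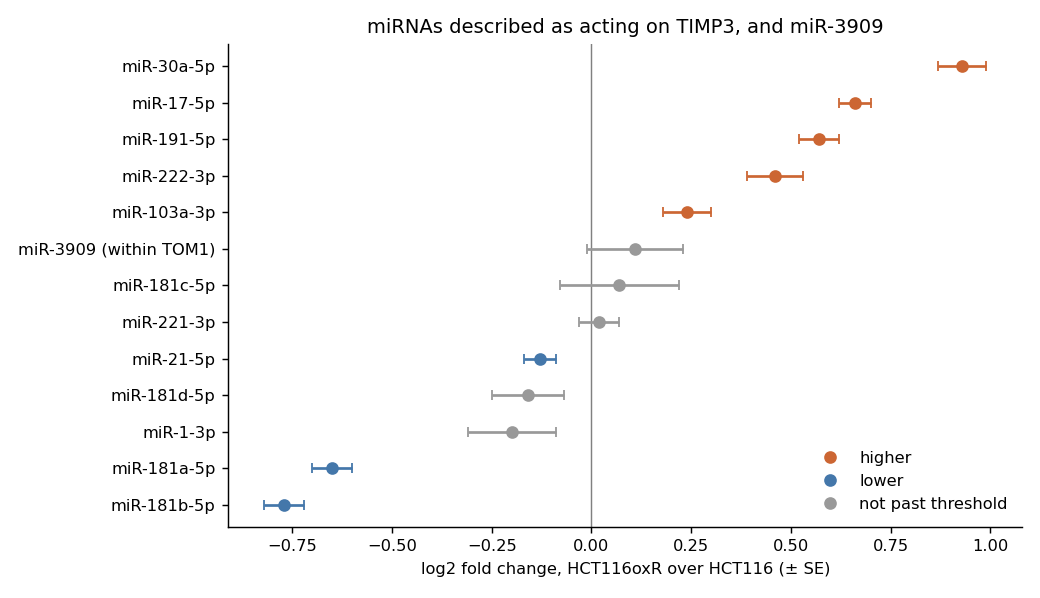
Log2 fold change (± SE) of HCT116oxR over HCT116 for the 12 tested miRNAs described as acting on TIMP3 and for miR-3909 of TOM1, coloured by the edgeR call. Values run from miR-181b-5p at -0.77 to miR-30a-5p at 0.93, with 5 higher, 3 lower and miR-3909 among those not past the threshold.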

How the data were processed

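The authors deposited raw counts of 54261 genes (total RNA) and 2588 mature miRNAs (small RNA), and these were used as they stand. Reads were aligned to GRCh38 with HISAT2 (total RNA) and BWA (small RNA) per the submitters' processing notes. Not given in the sources used here were versions, the counting tool, strand use and the handling of multi-mapping reads. The 12 libraries of 2 lines were compared separately by RNA kind in R 4.3.3 with edgeR 4.0.16: filterByExpr (10 counts in a library of median size, 15 in all), TMM factors, and the robust quasi-likelihood F test, 2-sided, with Benjamini-Hochberg adjustment over all features. DESeq2 1.42.0 and the other settings are alternatives. The code was tested on simulated counts. Positions, promoters and miRNA sequences came from RefSeq (GRCh38.p14), to which all but 2792 genes were matched by symbol, gene number or older symbol. Chromosome 22 entries on separate scaffolds were left out. The members, the partner and marker lists and the miRNA list were chosen with earlier results of these data known. Named genes were the members, all tested window genes, list genes past the threshold by at least 1.5-fold, up to 4 others per list that complete a complex or family, and the 3 genes most like TIMP3. One member of the list, with the genes that overlap it and a list of its pathway, is not reported here. Further list genes and untested window genes were named after their values were seen. Libraries of the same line differed by more than counting noise (lowest chi-square over its degrees of freedom 2.25 for total and 6.34 for small RNA), so each counted as 1 replicate.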

Additional observations from a re-analysis of the deposited data

How the results depend on the processing

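The number of window genes that were higher (5) and lower (5) depended on the setting. With DESeq2 6 were higher and 3 lower, and without the count filter 7 were higher and 3 lower. Leaving out 1 library at a time gave 5 to 6 higher and 2 to 4 lower. There were 2 lower without parental library 1 and 3 without HCT116oxR library 1 or 3. A flank of 2 Mb gave 12 higher and 17 lower, and no flank gave 1 and 0. Protein-coding genes alone gave 3 higher and 4 lower, and a test against a fold of 1.5 gave 2 higher and 1 lower. The list genes gave 11 to 14 higher and 8 to 12 lower, and the miRNAs 5 to 5 and 2 to 3, over the fits without 1 library. The log2 fold changes of the members kept their direction in all 10 alternatives, from 4.59 to 5.98 for TIMP3 without 1 library. Values near 0 changed sign without 1 library for DEPDC5 (0.06, 0.01 and 0.05; range -0.16 to 0.06), CPSF1P1 (-0.03, both times; range -0.03 to 0.06), DDX1 (-0.02, -0.04 and -0.01), TIMP1 (-0.00), miR-181c-5p (-0.05 and -0.03; range -0.05 to 0.20) and miR-221-3p (-0.00; range -0.00 to 0.07). The causes were not tested.

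Replicate numbers did not pair the samples: the correlation of deviations of same-numbered libraries was -0.00705, -0.0134 and -0.0275 in total RNA and 0.0789, -0.0431 and -0.144 in small RNA, and not every library correlated best with its own number. With the replicate number as a block, the window had 5 higher and 5 lower, the lists 13 and 10, and the miRNAs 5 and 2. Depth limits SYN3, BPIFC, ISX and the genes inside SYN3, which had at most 3 counts in any library.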
